A study of Rattus norvegicus with 35 samples.

Results

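miR-21 was followed through 7 days after contusion of the rat spinal cord, at 3 time points, by the probe named hsa-miR-21/mmu-miR-21/rno-miR-21, 1 of the 1766 microRNAs and other small RNAs on the arrays used. The probe was chosen by its name, occupied 4 spots on each of the 35 arrays, and was read in every group. The material was the cord of adult female Wistar rats, each array holding total RNA (1 µg) of 1 animal. Injured rats (LS1, LS3 and LS7) had a laminectomy and a contusion of 200 kdyne at thoracic vertebra 8 and were killed 1, 3 or 7 days after the operation (days postoperation, dpo). Sham rats (SH1, SH3 and SH7) had the laminectomy alone and were sampled on the same days, and control rats (CT) had no surgery. Every group held 5 animals, and injured and sham rats shared the anaesthesia and the opening of the vertebra. The model is a moderate lesion in 1 sex and strain. The RNA came from a 1 cm piece of whole cord around the lesion, so that a change in the cells present and a change in RNA per cell cannot be told apart.

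MicroRNAs are short RNAs that guide Argonaute proteins to messenger RNAs, which are then repressed or degraded, and bases 2 to 8 of the microRNA, the seed, carry most of the pairing. The hairpin of miR-21 is cut into a guide strand from its 5p arm, which is the abundant product and is called miR-21 on the array, and a passenger strand from its 3p arm, called miR-21*. In human and mouse cells miR-21 represses Pdcd4, a suppressor of translation and of survival, and it is known for its rise in tumours, in activated immune cells and in reactive astrocytes around lesions of the mouse cord. In the rat genome (GRCr8, RefSeq) the hairpin lies at chr10:71902600-71902691 on the minus strand. No other annotated gene overlaps it, and Vmp1 (chr10:71903223-72002337, same strand) ends 531 bases before it. The mature strands are shown because the report follows both, with the seed in capitals.
rno-miR-21-5p: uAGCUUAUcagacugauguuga
rno-miR-21-3p: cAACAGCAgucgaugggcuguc
The guide lies at chr10:71902653-71902674 and the passenger at chr10:71902615-71902636, each of 22 bases. Of the 724 mature rat microRNAs in the RefSeq table, miR-21-5p included, no other has its seed, so no probe of a rat relative was set beside it.

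The arrays detected between 270 and 1142 of the 1766 microRNAs and small RNAs, where a microRNA counted as detected when a share above 0.5 of its spots exceeded the mean plus 2 SD of that array's negative control spots. Some group had 3 or more animals with detection for 816 of them, and the 719 of these with an interquartile range above 0.5 across the arrays were tested. In CT cord, 5 of the 6 neuronal microRNAs (all but miR-137) and all 3 of oligodendrocytes were detected in at least 3 animals. So were all 3 erythrocyte microRNAs and 3 of 4 muscle microRNAs (all but miR-1). The LS7 arrays stood apart: they detected a median of 376 microRNAs (270 to 922), against 589 (567 to 771) on the SH7 arrays, and were scanned at green gains of 600 to 720, against 550 to 610 for the SH7 arrays. LS7 replicate 4 and SH7 replicate 1 have scanner values that differ from their columns in the deposited table (Spearman's rho of 0.912 and 0.938, against 1 for the other 33 arrays). Both are called doubtful here, and the miR-21 comparisons and list counts of 7 dpo are also given without both.

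miR-21 was well above background in every animal. All 140 of its spots exceeded the detection limit of their array, none was marked bad and none was saturated. Before any scaling, the green signal of its spots minus local background lay between 353 and 12870 scanner units over local backgrounds of 46 to 148. The median SD between the 4 spots of an array was 0.09 on the log2 scale, and the highest 0.30. Between the 5 animals of a group the SD was 0.20 (LS3) to 0.96 (SH1). The unscaled signal of the 5 animals, as the median of the 4 spots, was 3938, 6485.5, 6622.5, 9582 and 12256.5 in LS7 and 717.5, 786.5, 1150.5, 1430.5 and 2329 in SH7 cords. These groups did not overlap as scanned, at green gains of 600 to 720 for LS7 and 550 to 610 for SH7 arrays. As multiples of the detection limit of each array they did overlap, at 29.4 to 157 in LS7 and 18.3 to 42.1 in SH7 cords. In CT cords the unscaled signal was 371.5, 564.5, 642.5, 770 and 890.5, the lowest median of the 7 groups.

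**Figure D1:**
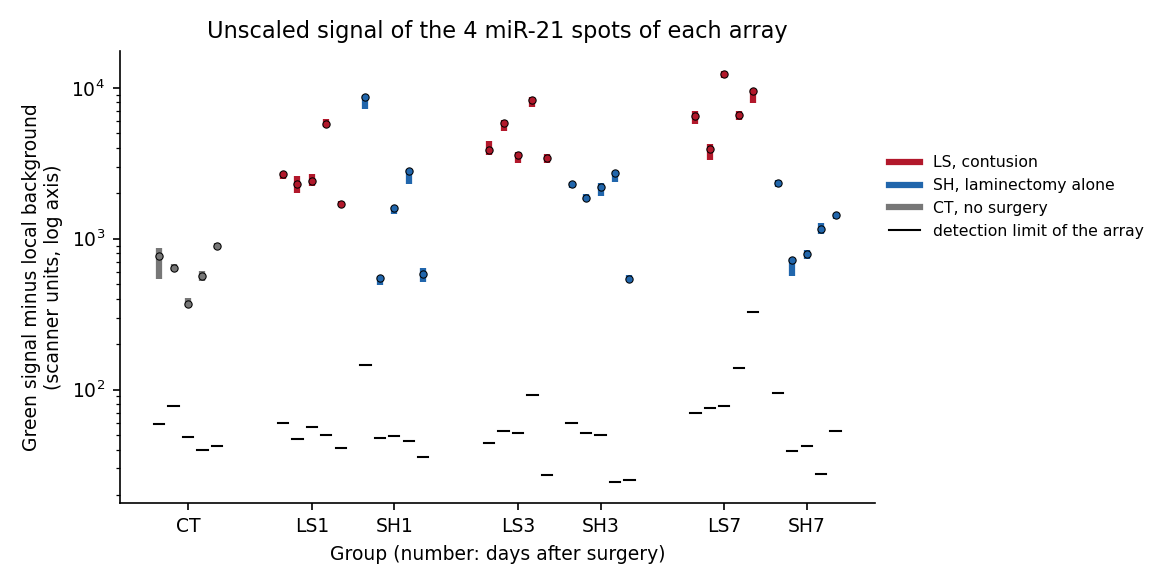
Green signal minus local background of miR-21 in scanner units (log axis) on each of the 35 arrays, grouped by surgery and day. Coloured bars run from the lowest to the highest of the 4 spots, points are their median and short black lines are the detection limit of the array. Every spot lies above the limit, between 353 and 12870 units, and the CT arrays lie between 371.5 and 890.5 as medians.

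Values below are on the generalized log2 scale of variance stabilization normalization (VSN), fitted across the 35 arrays to the background-subtracted green signal, so that a difference of 1 is a doubling. By group mean, miR-21 was ordered from CT through SH1, SH7, SH3 and LS1 to LS3 and LS7, a span of about 10-fold. In CT cords it was 8.89, 8.98, 9.23, 9.63 and 9.78 (mean 9.30 ± 0.39, SD, n = 5). One day after contusion LS1 cords had 10.46, 10.73, 10.97, 11.15 and 12.20 (mean 11.10 ± 0.67). SH1 cords had 8.98, 9.69, 10.22, 10.49 and 11.56 (mean 10.19 ± 0.96), the widest spread of the 7 groups. At 3 dpo the LS3 cords were closely alike, at 12.36, 12.43, 12.51, 12.59 and 12.87 (mean 12.55 ± 0.20). SH3 cords had 9.82, 11.02, 11.11, 11.14 and 12.23 (mean 11.06 ± 0.85). At 7 dpo LS7 cords had 11.94, 12.24, 12.65, 12.90 and 13.36 (mean 12.62 ± 0.56). SH7 cords had 10.06, 10.12, 10.40, 10.44 and 10.66 (mean 10.33 ± 0.24). All injured animals therefore lay above all controls, and from 3 dpo the injured animals also lay above all shams of their day. Of the neighbours in this order, LS3 and LS1 differed by the test and 4 pairs did not: SH1 and CT, SH7 and SH1, SH3 and SH7, and LS7 and LS3. SH3 and LS1, next to each other at means of 11.06 and 11.10, were not tested and overlapped.

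**Figure D2:**
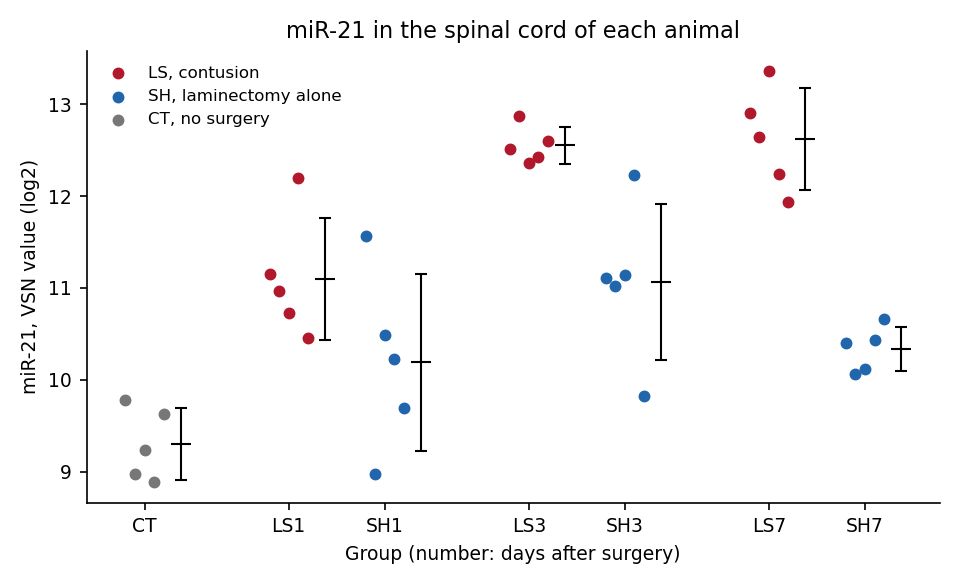
VSN value of miR-21 (log2) in each of the 35 animals, by group from CT to 7 dpo. Points are animals and black bars the mean ± SD of 5. LS3 (12.36 to 12.87) and LS7 (11.94 to 13.36) lie above every sham of their day and above every CT cord (8.89 to 9.78).

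The comparison of contused with sham cords asks what the contusion added to the surgery. miR-21 was higher in injured than in sham cords at 3 and 7 dpo, and the measured differences were 0.91, 1.49 and 2.28 on the log2 scale at 1, 3 and 7 dpo. At 7 dpo it was 2.28 ± 0.33 (SE) on the log2 scale, a 4.87-fold higher level in LS7 than in SH7 cords (95% interval 1.58 to 2.98, adjusted p = 0.000188 by limma). All LS7 animals were above all SH7 animals. Of the 719 microRNAs tested, 5.01% were called higher at 7 dpo and 58.4% lower, and 2.64% were higher without overlap of the groups. At 3 dpo the difference was 1.49 ± 0.39, or 2.80-fold (95% interval 0.66 to 2.31, adjusted p = 0.0426). All LS3 animals were again above all SH3 animals, the lowest at 12.36 and the highest sham at 12.23, and 0.278% of the microRNAs tested, miR-21 among 2, were called higher and 4.87% lower, while 0.556% were higher without overlap. This call was close to the limit and was lost when any of 8 of the 10 animals was left out (adjusted p between 0.0284 and 0.131 over the 10, with differences of 1.18 to 1.78). At 1 dpo the LS1 animals averaged 0.91 ± 0.45 above the SH1 animals, or 1.88-fold, with overlapping groups and an interval of −0.06 to 1.88 (adjusted p = 0.522), so that a difference of this size was not separated from the spread of the shams. None of the 719 microRNAs was called at 1 dpo by limma, while 67 were higher and 4 lower at an unadjusted p under 0.05. Without both arrays that differ from the deposited table, LS7 against SH7 gave 2.39 ± 0.41 (adjusted p = 0.00124), and the other miR-21 comparisons that use them stayed on the same side of the limit, with LS7 against CT at 3.41, LS7 against LS1 at 1.61, LS7 against LS3 at 0.16 and SH7 against CT, SH1 and SH3 at 1.02, 0.13 and −0.75.

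Injured and sham arrays rarely shared a scan day. The arrays were scanned on 13 days, with at most 4 arrays on a day. On the only day with an LS7 and an SH7 array the LS7 animal was 1.82 higher. On the only day with an LS3 and an SH3 array the LS3 animal was 1.31 higher. No day held both an LS1 and an SH1 array. With scan day as a block in the fit of all 7 groups, a setting added after seeing the data, LS7 against SH7 gave 1.82 with an adjusted p of 0.00298, whereas LS3 against SH3 gave 1.38 with an adjusted p of 0.102.

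Against cords without surgery, miR-21 was higher at every time after contusion. LS1 cords were higher than CT cords by 1.80 ± 0.33, or 3.48-fold (95% interval 1.10 to 2.50, adjusted p = 0.00253), at a day when 7.51% of the microRNAs tested were called higher and none lower, 6.4% were higher without overlap, with 143 higher and 15 lower at an unadjusted p under 0.05. With scan day as a block in the fit of all 7 groups this difference was 1.15 with an adjusted p of 0.110, and on the only day with arrays of both groups it was 0.95. LS3 cords were higher by 3.25 ± 0.32, or 9.51-fold (95% interval 2.57 to 3.93, adjusted p = 8.16e-06), when 0.278% were called higher, miR-21 and miR-223, and 1.11% were higher without overlap. None was called lower, with 74 lower at an unadjusted p under 0.05. LS7 cords were higher by 3.32 ± 0.35, or 9.96-fold (95% interval 2.57 to 4.07, adjusted p = 3.83e-05), when 2.64% were called higher and 50.9% lower, and 1.11% were higher without overlap. In both comparisons miR-21 had the lowest p of the 719 microRNAs, and its groups did not overlap. By p it ranked 16 in LS1 against CT, 9 in LS7 against SH7 and 26 in LS3 against SH3. On the 3 days that held arrays of both LS7 and CT the difference was between 2.70 and 3.26, and on the 2 days shared by LS3 and CT between 2.97 and 3.12.

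Among injured animals miR-21 was higher at 3 and 7 dpo than at 1 dpo, and no difference was called between 7 and 3 dpo. LS3 cords were 1.45 ± 0.36 above LS1 cords, or 2.73-fold (95% interval 0.69 to 2.21, adjusted p = 0.0352), and the lowest LS3 animal was above the highest LS1 animal. miR-21 was the only microRNA called higher of the 719 (0.139%), against 3.76% called lower, and 1.39% were higher without overlap. This call was lost when any of 8 of the 10 animals was left out, with differences of 1.29 to 1.72 and adjusted p up to 0.136. LS7 cords were 1.52 ± 0.40 above LS1 cords, or 2.86-fold (95% interval 0.68 to 2.36, adjusted p = 0.00373), where 5.29% were called higher and 61.5% lower. The LS7 and LS1 groups overlapped for miR-21, while 2.23% were higher without overlap. By p miR-21 ranked 17 of the 719 in LS3 against LS1 and 256 in LS7 against LS1. On the only scan day with arrays of both groups the difference was 2.17, and with scan day as a block the adjusted p was 0.104, or 0.00450 in the fit of all 7 groups. Between LS7 and LS3 the difference was 0.07 with a 95% interval of −0.71 to 0.84 (adjusted p = 0.895), and 0.834% of the microRNAs were called lower and none higher, with 1 higher at an unadjusted p under 0.05.

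Laminectomy alone is compared with no surgery to separate surgery from contusion. miR-21 was higher in SH3 and SH7 than in CT cords in every animal, although none of the 719 microRNAs passed the adjusted test in any of the 6 comparisons that hold only sham and CT cords. SH3 cords were 1.76 ± 0.37 higher, or 3.39-fold (95% interval 0.97 to 2.55), with an adjusted p of 0.190 by limma although miR-21 had the lowest p of all microRNAs tested. SH7 cords were 1.03 ± 0.25 higher, or 2.05-fold (95% interval 0.51 to 1.55), with an adjusted p of 0.415 and again the lowest p. In both, all 5 sham animals were above all 5 controls, which held for 1.67% of the microRNAs tested at 3 dpo and 1.81% at 7 dpo. At an unadjusted p under 0.05, 34 microRNAs were higher and 2 lower in SH3, and 77 higher and 6 lower in SH7. SH1 cords were 0.89 ± 0.41 above CT cords, with overlapping groups, an interval of −0.001 to 1.78 and an adjusted p of 0.999 (6 higher and none lower at an unadjusted p under 0.05). On the 2 scan days that SH7 and CT arrays shared the difference was 0.89 and 1.03, and on the 2 days that SH1 and CT shared it was 0.07 and 0.09. No day held both SH3 and CT arrays. Fitted with all 7 groups, which share 1 estimate of the spread, SH3 against CT had an adjusted p of 0.0360, and without SH3 replicate 5, the lowest of its group, it was 2.07 with an adjusted p of 0.0122. With arrays weighted by their quality SH7 against CT had an adjusted p of 0.0209. Of the 10 fits without 1 animal, SH3 against CT was called in only that 1, with adjusted p by limma up to 0.688. SH7 against CT was called in 0 of the 10, with adjusted p by limma up to 0.778. Under 9 scalings of the arrays SH3 against CT was called under 1 and SH7 against CT under 0.

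Within the shams no change with time was called. SH3 against SH1 gave 0.88 ± 0.48 (adjusted p = 0.661), SH7 against SH1 0.15 ± 0.39 (adjusted p = 0.872) and SH7 against SH3 −0.73 ± 0.34 (adjusted p = 0.999). Of the 719 microRNAs, 25, 87 and 3 were higher and 8, 23 and 9 lower in these comparisons at an unadjusted p under 0.05.

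**Figure D3:**
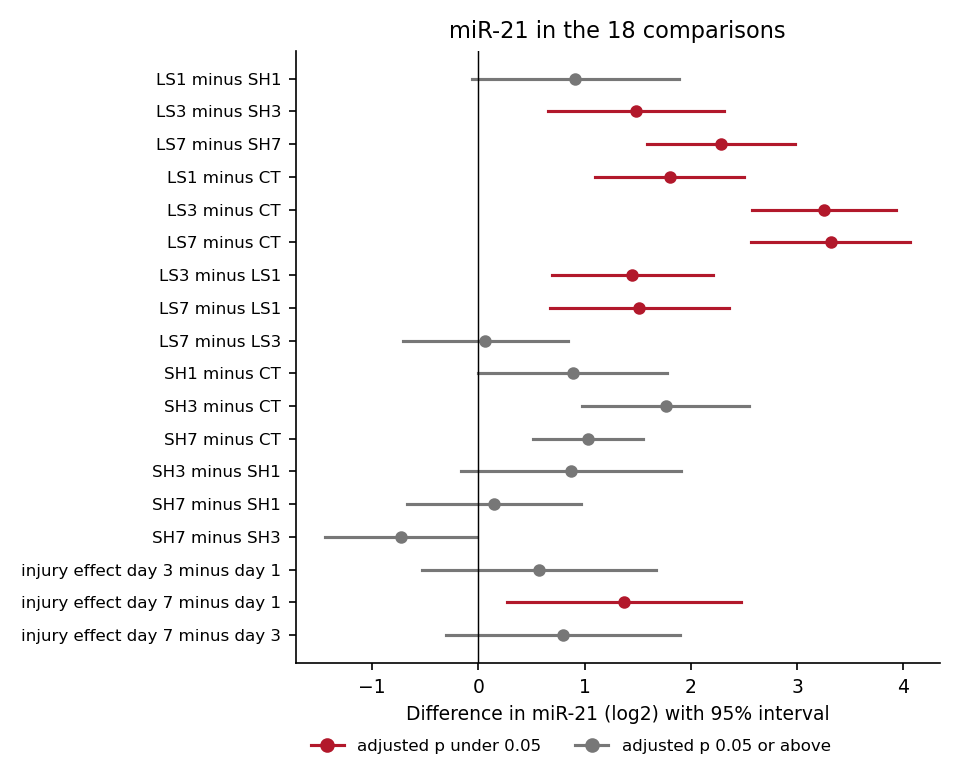
Differences in miR-21 (log2) with 95% intervals in the 18 comparisons, first-named group minus second. The lowest 3 rows compare the injured-minus-sham difference between days. Red points have an adjusted p under 0.05 by limma, and the differences run between −0.73 (SH7 minus SH3) and 3.32 (LS7 minus CT).

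Whether the contusion added more to miR-21 on a later day was tested as the difference between the injured-minus-sham effects, in a fit of all 7 groups. The effect at 7 dpo exceeded that at 1 dpo by 1.37 ± 0.54, or 2.59-fold (95% interval 0.27 to 2.47, adjusted p = 0.0307). Of the 719 microRNAs tested, 2.92% had a larger and 56.1% a smaller effect at 7 than at 1 dpo. Among them miR-21 ranked 377 by p, with an unadjusted p of 0.0161 by limma. The call was lost without LS1 replicate 3, LS1 replicate 5, SH1 replicate 1 or LS7 replicate 3 (adjusted p up to 0.0896, with differences of 1.03 to 1.67 over the 20 animals). It was also lost with scan day as a block (1.06, adjusted p = 0.190, and 1.16, adjusted p = 0.0649, as a random block), and was 1.48 (adjusted p = 0.0323) without both arrays that differ from the deposited table. The effect at 3 dpo exceeded that at 1 dpo by 0.57 ± 0.54 (adjusted p = 0.519) and the effect at 7 dpo that at 3 dpo by 0.80 ± 0.54 (adjusted p = 0.289), both with intervals that include 0. No microRNA had a called difference between 3 and 1 dpo, with 3 larger and 80 smaller at an unadjusted p under 0.05.

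Since the majority of microRNAs were lower in LS7 cords, the zero of the scale mattered and miR-21 was read under 9 scalings of the arrays. As scaled here, the median change of the 816 detected microRNAs between LS7 and SH7 was −1.001, the lowest of the 9, and the highest was 1.34. miR-21 was higher in LS7 than in SH7 cords under all 9, by 2.28 to 3.95, and by 2.61 to 3.99 relative to that median, with an adjusted p under 0.05 each time. The same held of LS1, LS3 and LS7 against CT, at 0.97 to 2.89, 2.97 to 3.44 and 3.31 to 4.66. LS3 against SH3 was positive under all 9 (1.47 to 2.01) and called under 6. LS1 against SH1 was positive under all 9 (0.48 to 2.72) and called under 1, the scaling to spiked-in control RNAs, which moved the median of the detected microRNAs by 1.83 in that comparison. Relative to that median it was then 0.89. LS3 against LS1 was positive under all 9 (0.19 to 2.001) and called under 6, and LS7 against LS1 under 8. The larger effect of injury at 7 than at 1 dpo was called under 8 of the 9 and was −0.08 with the spiked-in controls, where the median moved by −1.96.

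**Figure D4:**
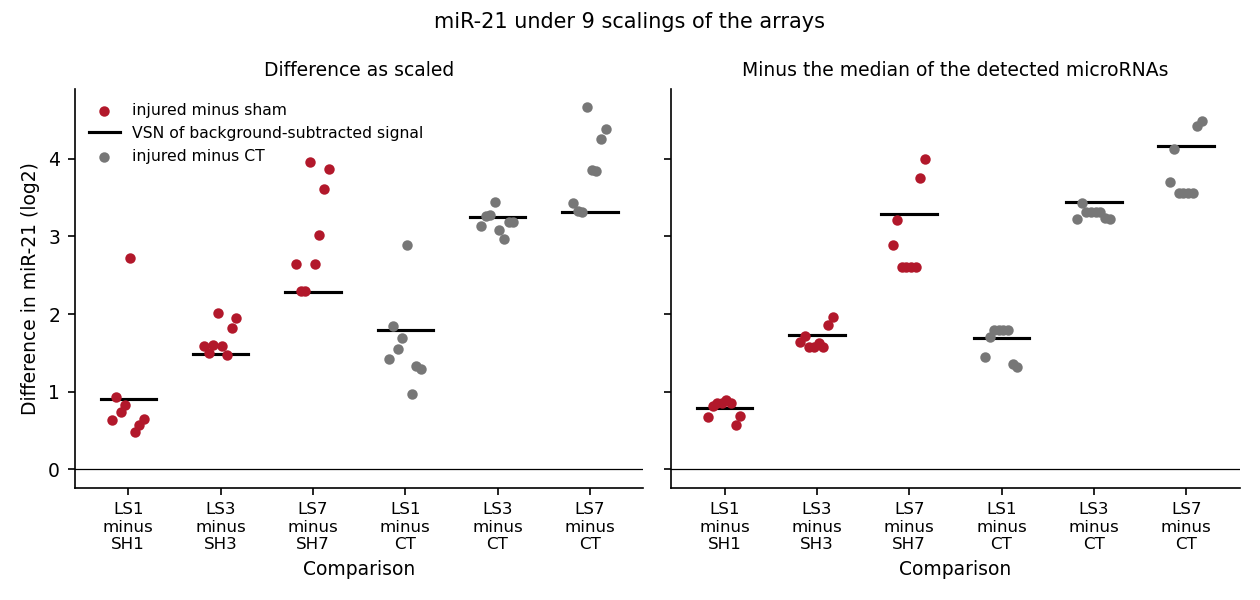
Differences in miR-21 (log2) between injured and sham or CT cords under 9 scalings, as scaled (left) and after subtracting the median difference of the 816 detected microRNAs under the same scaling (right). Black lines are the VSN values of the text and points the other 8 scalings, of which the 4 that shift whole arrays nearly coincide on the right. All points lie above 0.

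The passenger strand took another course. Read by the probe with the mouse and rat names of miR-21*, it was detected in 5 LS1, 4 LS3 and no LS7 cord, in 4 SH1, 4 SH3 and 2 SH7 cords and in 3 CT cords, so that most of its values lie near the limit of detection. In LS1 cords it was 6.74, 7.61, 7.98, 8.61 and 8.66, against 4.63, 4.79, 5.25, 5.39 and 5.43 in CT cords. LS1 cords were higher by 2.82 ± 0.35 (adjusted p = 0.000147 by limma), without overlap. Counting each CT array at no less than the lowest signal it detected, the difference was at least 2.59 as scaled here. The SH1 animals were spread between 5.13 and 9.04, and LS1 against SH1 gave 1.47 with an adjusted p of 0.486. By 3 dpo the injured cords had fallen to 4.77, 6.001, 6.28, 6.35 and 6.48, which was 1.95 ± 0.44 below LS1 cords (adjusted p = 0.0241, lost in 5 of the 10 fits without 1 animal, with adjusted p up to 0.0996). In LS7 cords it was between 4.10 and 5.97 and not well above background on any array. The LS7 mean of 5.16 was near the CT mean of 5.10, although 3 CT cords had detection. Detection limits were 70.3 to 325 scanner units on LS7 and 39.8 to 77.4 on CT arrays. As scaled here, its level in LS1 cords was at least 3.97-fold higher than in LS7 cords, counting each LS7 array at no less than the lowest signal it detected. The fitted difference of −2.76 (adjusted p = 0.000146, and −2.97 without both arrays that differ from the deposited table) is no measured fold.

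As scaled here, miR-21 was thus 1.52 higher in LS7 than in LS1 cords and miR-21* lower by at least 1.99 on the log2 scale. The median change of the 816 detected microRNAs in this comparison was −1.13. The effect of injury on miR-21* was smaller at 7 than at 1 dpo by −1.78 ± 0.73 (adjusted p = 0.0375), the opposite direction to miR-21, although it rests on an LS7 group below the limit of detection. The call was lost in 11 of the 20 fits without 1 animal, with values of −2.43 to −1.45. This difference between days depended on the scaling and was 0.87 with arrays scaled to the microRNAs detected on all arrays and 0.28 with the reference small RNAs. The rise of miR-21* in LS1 against CT cords was called under all 8 scalings in which it was tested (1.40 to 3.37). For miR-21*, LS7 against LS1 was negative under all 8 (−2.76 to −0.34) and called under 6. The probe with only the human name of miR-21* was detected in no group and was not tested.

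**Figure D5:**
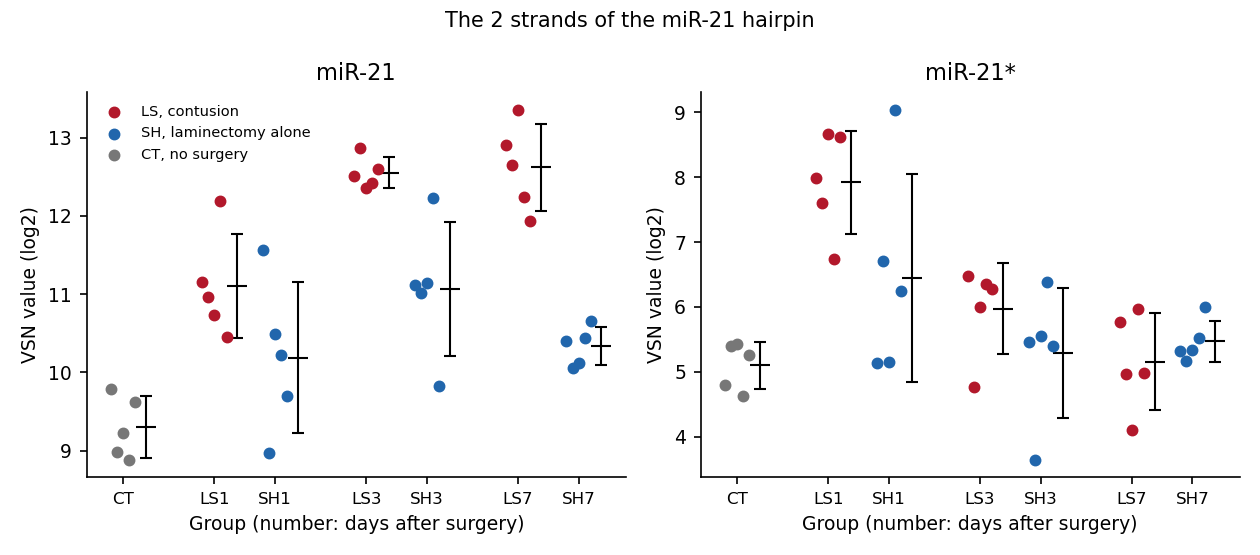
VSN values (log2) of miR-21 (left) and its passenger strand miR-21* (right) in each animal, with the mean ± SD of 5 in black. The axes differ and levels of the probes are not comparable. In injured cords miR-21 is highest at 3 and 7 dpo (11.94 to 13.36) and miR-21* at 1 dpo (6.74 to 8.66).

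The rat-named microRNAs whose values followed miR-21 most closely over the 35 arrays were miR-147 (Pearson r = 0.79), miR-223 (0.62), miR-193 (0.56), miR-532-5p (0.55) and miR-449a (0.51). The median r of the 262 rat-named microRNAs was −0.36, the arrays share their scaling and depth, and miR-21* itself had an r of −0.05. Over the 8 other scalings the r of these 5 was between 0.42 and 0.97, and their rank among the 262 between 1 and 39. They share no seed with miR-21, as their mature sequences show, with the seed in capitals.
rno-miR-147: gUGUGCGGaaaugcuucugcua
rno-miR-223-3p: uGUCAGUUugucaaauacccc
rno-miR-193a-3p: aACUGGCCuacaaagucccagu
rno-miR-532-5p: cAUGCCUUgaguguaggacugu
rno-miR-449a-5p: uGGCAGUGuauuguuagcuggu
miR-223, a microRNA of neutrophils and other myeloid cells, was detected in every animal of the 7 groups. It averaged 10.15 ± 0.61 in LS1, 10.39 ± 0.63 in LS3 and 9.13 ± 0.72 in LS7 cords, against 7.75 ± 0.50 in CT cords. It was higher than in CT on each day after injury, by 2.40 (adjusted p = 0.000246), 2.65 (0.000796) and 1.39 (0.0101). Against shams it gave 1.60 at 3 dpo (adjusted p = 0.0534) and 0.41 at 7 dpo (adjusted p = 0.433). Under the 9 scalings these differences ranged between 1.55 and 2.09 with 6 called at 3 dpo, and between 0.41 and 2.15 with 4 called at 7 dpo. miR-147, which is induced in mouse macrophages by Toll-like receptor signalling, was dim, detected in 1 LS7 and no SH7 cord. Its values were 5.04 to 5.73 in LS7 and 4.08 to 4.63 in SH7 cords, and the fitted difference of 0.89 (adjusted p = 0.0158) is no measured fold. miR-449a gave 0.58 in LS7 against SH7 cords (adjusted p = 0.112 by limma), and up to 2.49 with a call under 4 of the 6 scalings in which it was tested. It was dim too, detected in 3 LS7 and 2 SH7 cords, so that these differences are no measured folds. miR-193 and miR-532-5p varied too little across the arrays to enter the test, and miR-532-5p was detected in only 2 LS7 and in 5 SH7 cords.

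MicroRNAs that mark cell types were set beside miR-21, and their part in its rise was not tested. Of the 8 immune cell microRNAs, all tested, 2 passed the test and none was lower in LS7 against SH7 cords. These were miR-147 and miR-155, with miR-155 at 0.75 (adjusted p = 0.0302), and neither was above background in more than 1 LS7 or 1 SH7 animal, so that the differences are no measured folds. Without both arrays that differ from the deposited table none was called. With all arrays, 5.01% of the 719 were called higher and 58.4% lower. The list then had a median change of −0.05 where the 719 had −1.11. In LS3 against SH3 none was called and their median was 0.60, where the 719 had −0.26, while between 0 and 3 were called higher under the 9 scalings. Their summed level was 11.8 (median, log2 of the sum, 10.8 to 12.8) in LS7 and 12.1 (11.9 to 13.0) in SH7 cords, as scaled here. In LS3 cords the sum was 12.9 (11.8 to 13.4), against 11.9 (11.6 to 13.4) in SH3 cords. Between 0 and 8 of them were called higher in LS7 than in SH7 under the 9 scalings and none lower. The 8 came with arrays scaled to the microRNAs detected on all arrays. There the list had a median change of 1.74 and the 816 detected microRNAs themselves 1.34. The 6 neuronal microRNAs were all lower in LS7 than in SH7 cords, with a median change of −1.93, where 58.4% of the 719 were called lower. They were miR-124, miR-9, miR-9*, miR-128, miR-137 and miR-138, the last of which the study ties to oligodendrocytes. In LS3 against SH3 cords 3 of the 6 were lower, miR-124, miR-128 and miR-9, where 4.87% of the 719 were. miR-124, the most abundant microRNA of neurons, was lower by −2.62 at 7 dpo (adjusted p = 0.000194) and by −1.74 at 3 dpo (adjusted p = 0.0399). Under the 9 scalings between 1 and 6 neuronal microRNAs were called lower at 7 dpo and none higher, and between 0 and 5 lower at 3 dpo. Shares of all microRNAs called under the other scalings are not given here. Over the 9 the median change of the 816 detected microRNAs was between −1.001 and 1.34 at 7 dpo. At 3 dpo it was between −0.24 and 0.44. Without both arrays that differ from the deposited table all 6 were lower at 7 dpo.

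The 3 erythrocyte microRNAs were lower in LS7 than in SH7 cords, among them miR-144 (−3.23, adjusted p = 0.000774), with summed levels of 9.35 to 12.9 against 12.4 to 14.6. The 3 oligodendrocyte microRNAs were lower as well, miR-219-2-3p by −2.76 (adjusted p = 0.000661). Without both doubtful arrays, 2 erythrocyte and 3 oligodendrocyte microRNAs were lower, and under the 9 scalings 0 to 3 of each list were lower and none higher. Over these scalings the median change of the 816 detected microRNAs was itself between −1.001 and 1.34. In LS3 against SH3 none of these 6 was called as scaled here, but the 3 erythrocyte microRNAs were called higher under normexp and under the ratio to red, and 2 of oligodendrocytes lower under the ratio to red. Of the vessel wall and mesenchyme list 2 of 5 were lower at 7 dpo, miR-145 by −1.92 (adjusted p = 0.00246) and miR-143 by −1.25 (adjusted p = 0.00718). All 3 muscle microRNAs tested and the endothelial microRNA tested, miR-126*, were lower as well, miR-133a by −1.92 (adjusted p = 0.000394). The direction of 2 of these lists turned with the scaling. The vessel wall list had 0 to 3 called higher and 0 to 2 lower over the 9, with 3 of 3 tested higher when arrays were scaled to the microRNAs detected on all arrays. The muscle list had 0 to 2 higher and 0 to 3 lower, with 2 of 3 higher under that scaling and none called with the spiked-in controls. Without both doubtful arrays, 2 of the vessel wall list, 1 of the muscle list and miR-126* were lower. In the same comparison 58.4% of all microRNAs tested were lower.

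Besides miR-21 itself, the study lists 8 of the microRNAs tested as protecting from apoptosis. Of these 8, 5 were lower and none higher in LS7 than in SH7 cords, led by miR-10b (−2.46, adjusted p = 0.000610 by limma). The median change of the 8 was −1.47, where the 719 had −1.11 with 58.4% called lower. That list was chosen by the study on these samples and is no independent evidence of its direction. Over the 9 scalings between 0 and 3 of it were higher and 0 to 5 lower. The median change of the 816 detected microRNAs was between −1.001 and 1.34 over these scalings. The count of 5 lower was the same without both arrays that differ from the deposited table.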

How the data were processed

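Total RNA of 35 animals in 7 groups of 5 was hybridized to Exiqon miRCURY LNA arrays. The deposited table holds, per the methods, the authors' VSN values on a log2 scale, 1 per spot. The scanner files hold intensity values as deposited, the authors' unnormalized medians of spots and of their local background in green and red. A quality score per spot, per the file headers, marks bad spots as −100. In the deposited file of 1 array other values are written with decimal commas, which were read as points. The sample of the red channel is not given in the sources used here.

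Background was subtracted from the green medians, bad spots were left out, VSN (written in Python 3.11.15, with 0.9 of spots in the trimmed fit, tested on simulated data) was fitted over the 35 arrays, and each probe was given the median of its spots. Limits of detection came from up to 28 negative control spots. Detected microRNAs whose interquartile range exceeded 0.5 entered limma 3.58.1 in R 4.3.3 on the 10 arrays of each pair of groups, and effects of injury between days on all 35 arrays, with Benjamini-Hochberg adjustment and a limit of 0.05. These p-values measure the spread between animals. The number of arrays limits the precision.

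miR-21, the lists and the tests were chosen with earlier results of these data known. Named beside miR-21 were its passenger strand, the 5 rat-named microRNAs with the highest r to it, and up to 3 members a list with the largest called changes in LS7 against SH7 or LS3 against SH3. One list is not reported here. Scalings tried were the deposited values, VSN without background subtraction, normexp (offset 50) with quantile normalization, 75th percentiles over all or over the 199 microRNAs detected on all arrays, 5 spiked-in controls, 5 reference small RNAs, and loess-normalized ratios of green to red. Centring on detected microRNAs, filters, spot summaries, array weights, scan day, replicate block and leaving out animals were other alternatives. Replicate numbers did not pair the animals (0 of 15 comparisons had every r over 0.1, range −0.66 to 0.66). The authors' own test results were not used, except through their list of anti-apoptotic microRNAs, whose members had significant changes in their tests. Sequences are from RefSeq (GRCr8), in which both strands of miR-21 were matched by name.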

Additional observations from a re-analysis of the deposited data

Results flagged for a closer look

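The injury effect on miR-21 (LS minus SH) differed between days: it was 1.37 larger at 7 than at 1 dpo (adjusted p = 0.0307 by limma, all 35 arrays), and 1.06 without the call when scan day was a block. The injury effect on miR-21* differed in the opposite direction, at −1.78 (adjusted p = 0.0375), but miR-21* was above background in no LS7 and 2 SH7 cords, and the value turned to 0.87 and 0.28 under 2 scalings. Within groups of 5 animals, 1 animal lay far from the others in 4 cases among the 7 microRNAs and 7 groups examined, where chance alone gives about 1 in 20 groups. These were miR-21* in LS3, with an animal at 4.77, and miR-193 in LS1, LS3 and LS7, with animals at 9.42, 8.54 and 7.11. No animal of any group was so far from the others for miR-21.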

How the results depend on the processing

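Of 333 alternative values of the 18 miR-21 results, other than those without 1 animal, 300 kept direction and side of the limit. With spiked-in controls LS1 against SH1 (2.72) gained the call, LS3 against SH3 (1.59), LS3 against LS1 (0.19) and LS7 against LS1 (0.96) lost it, and the effects at 3 and 7 against 1 dpo were −1.13 and −0.0774. With the microRNAs detected on all arrays, LS3 against SH3 (2.01) and LS3 against LS1 (1.75) lost it, the effect at 7 against 3 dpo (1.94) gained it and SH7 against SH1 was −0.16. With reference small RNAs LS3 against SH3 (1.47) and LS3 against LS1 (2.001) lost it. With normexp SH3 against CT (1.36) and the effect at 7 against 3 dpo (1.78) gained it, and SH7 against SH1 was −0.11. With the red ratio LS7 against LS3 (1.199) and the effect at 7 against 3 dpo (1.92) gained it, and SH7 against SH1 was −0.12. With deposited values SH7 against SH1 was −0.0057. Without filters LS3 against SH3 (1.49), LS3 against LS1 (1.45) and the effect at 7 against 1 dpo (1.37) lost it. Weights gave LS1 against SH1 (1.01) and SH7 against CT (1.03) the call, and 1 fit of all groups SH3 against CT (1.76). Scan day as a block took it from LS7 against LS1 (2.17) and the effect at 7 against 1 dpo (1.06, and 1.16 as a random block) and turned LS7 against LS3 to −0.10. In the fit of all groups it took it from LS3 against SH3 (1.38) and LS1 against CT (1.15), with LS7 against LS3 at −0.14. The replicate block left LS3 against LS1 at 1.45 without the call (adjusted p = 0.0576). The cause of these changes was not tested. Without 1 animal, ranges were 1.18 to 1.78 (LS3 against SH3), 1.29 to 1.72 (LS3 against LS1), −0.12 to 0.24 (LS7 against LS3), 1.47 to 2.07 (SH3 against CT), −0.16 to 0.49 (SH7 against SH1) and 1.03 to 1.67 (effect at 7 against 1 dpo). For miR-21*, LS1 against SH1 gained the call with spiked-in controls (2.98) and weights (1.83). It was lost with the microRNAs detected on all arrays, with reference small RNAs and without filters by LS3 against LS1 (−1.23, −0.98 and −1.95), and with the first 2 and scan day as a block by LS7 against LS1 (−0.34, −0.43 and −2.89). The effect on miR-21* at 7 against 1 dpo turned to 0.87 and 0.28 with those 2 scalings, and lost the call with deposited values (−0.59), 75th percentiles (−0.71), centring (−0.77), the red ratio (−0.62), no filters (−1.78) and scan day (−2.43). Without 1 animal the miR-21* ranges were 1.14 to 2.12 (LS1 against SH1), −2.24 to −1.65 (LS3 against LS1) and −2.43 to −1.45 (effect at 7 against 1 dpo). Scan day could not be fitted as a block in pairs of groups that shared no day.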
